A study of Mus musculus with 2 samples.

Results

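Small nucleolar RNA (snoRNA) genes and the spliced genes named as their hosts were examined in primordial germ cells (PGCs) of the mouse, from which eggs and sperm develop. The members were every row of the deposited expression table whose symbol begins with Snora or Snord and a number, together with Gas5 and each Snhg gene named by a number. They made up 126 of 18877 rows, of which 38 were Snora genes, 72 were Snord genes and 16 were hosts. The study derived germ cells and oocytes from parthenogenetic embryonic stem cells, and sequenced RNA of PGCs from embryos to describe germ cell markers and imprinted genes. Both samples belong to 1 group, untreated PGCs of embryonic day 9.5 (E9.5) from C57BL6 mice, enriched with an antibody to the surface antigen SSEA1. The methods describe female embryos, a pool of cells per sample and, for this stage, sorting with CD61 and SSEA1 antibodies or with SSEA1 beads alone. No treated, mutant or other-stage library was analysed here, so every value describes these PGCs without a comparison group.

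SnoRNAs guide the chemical modification of ribosomal RNA in the nucleolus. Box C/D snoRNAs (Snord genes) direct methylation of the ribose by fibrillarin, and box H/ACA snoRNAs (Snora genes) direct conversion of uridine to pseudouridine by dyskerin, while a few of either class act in cutting the ribosomal RNA precursor instead. In mammals most are cut out of the introns of other genes, either ribosomal protein and translation factor genes or non-coding hosts such as Gas5 and the Snhg genes, and the mature small RNAs carry no poly(A) tail.

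The letters that define each class are visible in the members that the values below turn on. The sequences shown are those of the Gas5 snoRNAs, the members with the most reads in each class, the Snora73 pair of Snhg3, and, in each class, the member with a mean of at least 10 TPM that differed most between replicates (Snord8 and Snora43), all 5′ to 3′ from GENCODE M21 transcripts on GRCm38 (mm10). Capitals mark a C box (NTGATGA within the first 25 bases), a D box (CTGA within the last 20 bases) or, in Snora genes, the ACA nearest the end (within the last 10 bases).
Snord78, inside Gas5, chr1:161036984-161037049, plus strand: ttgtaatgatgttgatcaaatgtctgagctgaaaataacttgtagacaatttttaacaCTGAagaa
Snord80, inside Gas5, chr1:161037601-161037681, plus strand: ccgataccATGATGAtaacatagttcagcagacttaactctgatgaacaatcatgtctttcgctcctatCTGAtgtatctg
Snord47, inside Gas5, chr1:161038082-161038158, plus strand: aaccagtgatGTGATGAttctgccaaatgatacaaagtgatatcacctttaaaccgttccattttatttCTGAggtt
Snord22, inside Snhg1, chr19:8725866-8725991, plus strand: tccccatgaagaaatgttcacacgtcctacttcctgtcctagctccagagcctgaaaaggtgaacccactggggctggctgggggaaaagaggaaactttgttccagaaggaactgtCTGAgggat
Snord8, inside Chd8, chr14:52209785-52209894, minus strand: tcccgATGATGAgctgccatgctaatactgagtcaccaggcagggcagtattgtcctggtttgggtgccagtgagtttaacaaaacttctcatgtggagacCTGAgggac
Snora57, chr19:8888538-8888685, minus strand: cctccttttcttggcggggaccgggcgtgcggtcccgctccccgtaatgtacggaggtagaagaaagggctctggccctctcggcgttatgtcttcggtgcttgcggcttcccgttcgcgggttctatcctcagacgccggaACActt
Snora65, inside Rpl12, chr2:32963291-32963420, plus strand: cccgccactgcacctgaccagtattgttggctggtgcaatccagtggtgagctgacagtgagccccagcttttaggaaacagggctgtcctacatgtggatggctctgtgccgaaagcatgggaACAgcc
Snora43, chr2:26637848-26637974, minus strand: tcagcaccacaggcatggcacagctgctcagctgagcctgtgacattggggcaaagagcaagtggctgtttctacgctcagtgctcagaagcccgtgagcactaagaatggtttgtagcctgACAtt
Snora73a, inside Snhg3, chr4:132352775-132352979, minus strand: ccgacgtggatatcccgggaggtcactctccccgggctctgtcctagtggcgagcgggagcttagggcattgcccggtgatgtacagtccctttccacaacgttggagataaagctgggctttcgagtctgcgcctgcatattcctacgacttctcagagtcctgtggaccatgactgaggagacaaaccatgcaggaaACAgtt
Snora73b, inside Snhg3, chr4:132352322-132352526, minus strand: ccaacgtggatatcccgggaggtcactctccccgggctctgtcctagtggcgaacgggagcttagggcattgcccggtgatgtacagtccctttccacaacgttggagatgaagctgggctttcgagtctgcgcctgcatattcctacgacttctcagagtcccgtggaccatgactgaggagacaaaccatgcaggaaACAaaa

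The D box and the ACA followed the class names closely, and the C box less so. A D box was found in 70 of 72 Snord genes (97.2%) and a C box in 48 (66.7%), with both in 47. Snord53 and Snord68 held no CTGA in the window, and Snord78, whose TPM was the highest of all members, held no C box by these letters. Of the 37 Snora genes with a located sequence, 35 (94.6%) held an ACA in the last 10 bases, and Snora44 and Snora81 did not. The same windows of 2202 annotated miRNA genes held a D box in 8.72%, a C box in 0.318% and an ACA in 19.2%. In 32851 RefSeq promoter windows of 300 bases on the same assembly, the shares were 9.94%, 0.447% and 9.35%. These searches read the strand of the gene alone, and a match is a description of letters.

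The labelled cell type was checked before the members were described. The level of a gene is given as TPM, its reads per base of exon scaled to a fixed total per library. All 8 PGC markers had 1 TPM or more in each library, from 6.98 for Prdm1 to 5044 for Dppa3. Of the erythroid markers, 4 of 6 had a row and their sums were 3529 and 3328 TPM in replicates 1 and 2, almost all of it the embryonic globins, while Klf1 stood at 0.275 and 1.56 TPM. The 4 macrophage markers summed to 19.4 and 9.53 TPM, the 4 endothelial markers to 4.71 and 1.01 TPM, and the 4 gonadal or mesonephric markers to 3.86 and 3.99 TPM, with C1qb and Emcn at 0 in replicate 2. The part of these cells in the values below was not tested, and in such bulk samples a lower number of cells and less RNA per cell cannot be told apart. The table corresponded to 15912694 reads for replicate 1 and 5458768 for replicate 2, so the first was 2.92 times as deep.

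Over all members, the hosts had the highest class median, and Snord genes reached the highest single values. On the log2(TPM + 1) scale, the 16 hosts had medians of 4.47 and 4.28 in replicates 1 and 2 (4.38 ± 0.132 as mean and SD, n = 2). The 72 Snord genes had medians of 3.98 and 3.68 (3.83 ± 0.213), and the 38 Snora genes had medians of 3.62 and 3.47 (3.54 ± 0.108). The median of all 18877 genes was 1.89 and 1.85. Hosts did not lead when only members with a mean TPM of at least 1 were kept. The medians were then 4.46 ± 0.206 for Snora genes, 4.38 ± 0.132 for hosts and 4.32 ± 0.214 for Snord genes. In plain TPM the class medians were 21.3 and 18.6 for hosts, 14.8 and 11.8 for Snord genes, and 11.3 and 10.1 for Snora genes. The Snord median exceeded the Snora median by 0.29 ± 0.105 on the log2 scale, but the sign turned to -0.15 when levels were expressed as log2(RPM + 1), with RPM the recovered reads scaled to a fixed total and not divided by length, and to -0.14 when only members with a mean TPM of at least 1 were kept (-0.44 in replicate 1 and 0.15 in replicate 2), so that no order of the small RNA classes held under every setting.

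A TPM of 1 or more in each library was found for all 16 hosts, 49 of 72 Snord genes and 24 of 38 Snora genes, where 60% of all genes in the table passed. Each library on its own detected 60 and 52 Snord genes and 29 and 24 Snora genes. At 5 TPM or more in each, the counts were 13 hosts, 41 Snord genes and 22 Snora genes against 35.5% of all genes. The 138 names of small RNAs that the rule would take from GENCODE M21 had 110 rows in the table, and the others were not analysed here.

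**Figure D1:**
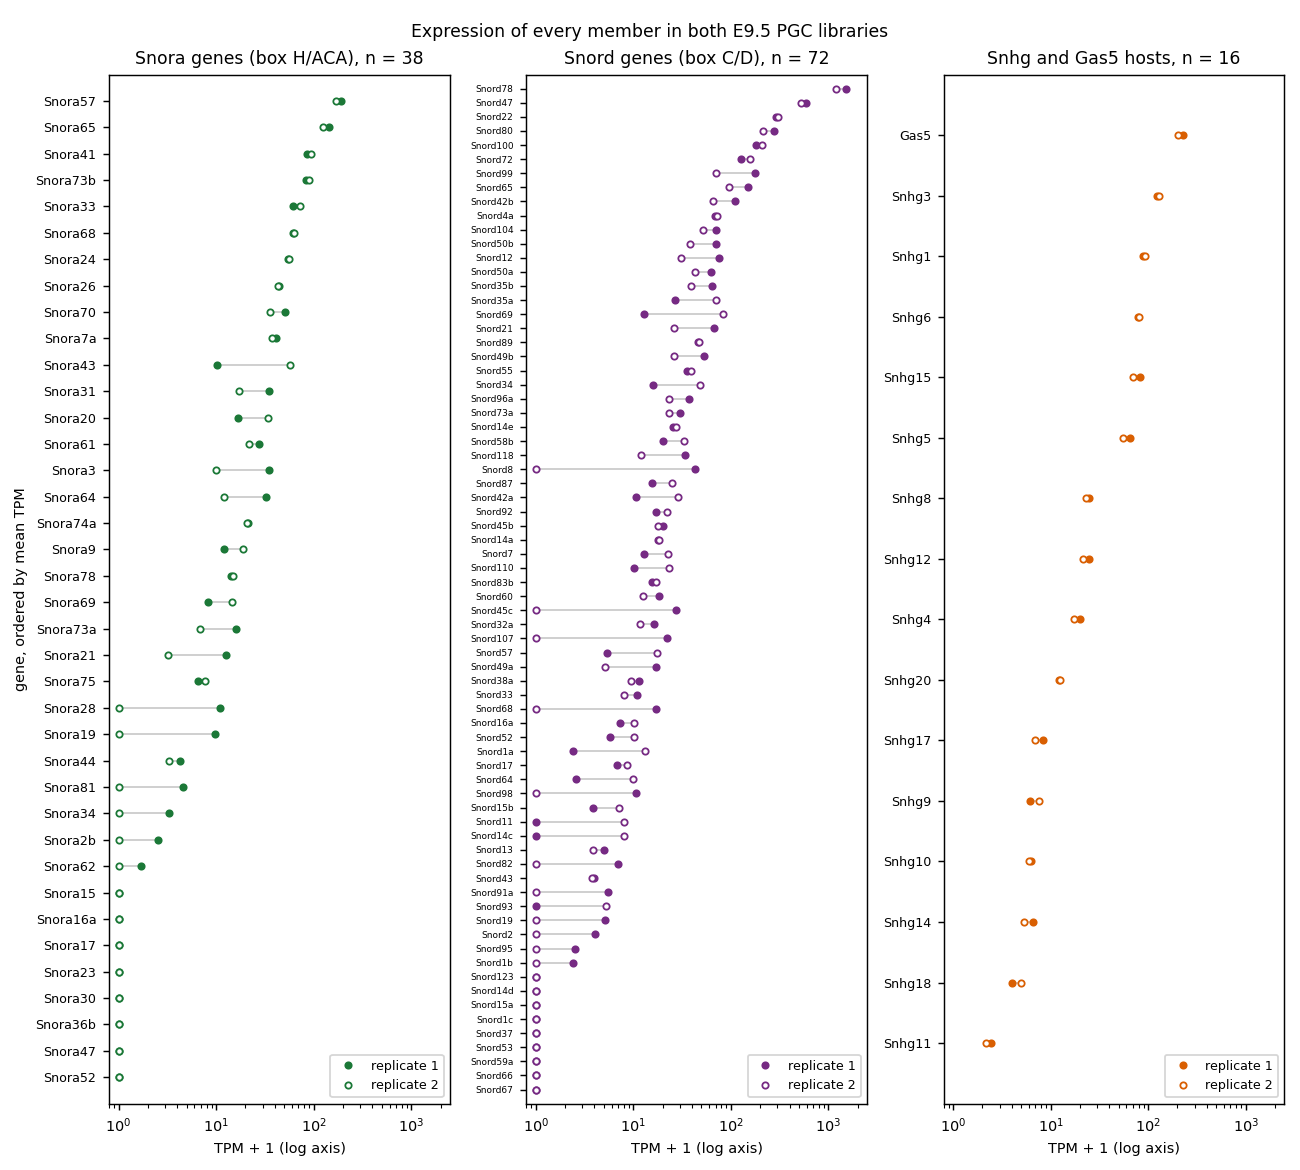
TPM + 1 of each of the 38 Snora, 72 Snord and 16 host genes on a log axis, genes ordered from the highest to the lowest mean, with filled points for replicate 1, open points for replicate 2 and a grey line joining them. The points of each host lie close to each other, over means from 1.32 to 215 TPM. Snord genes run from 0 to 1362 TPM, and many low Snora and Snord genes have an open point at 0.

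Short length weighs heavily in these values. Snord genes had a median length of 77.5 bases (64 to 238) and Snora genes of 132 bases (121 to 205), compared with 1730 exonic bases for hosts. For Snord78, with 66 bases, 1 read was worth 1.59 TPM in replicate 1 and 4.53 TPM in replicate 2, whereas for Gas5, with 3760 bases, it was worth 0.0280 and 0.0796 TPM. The median Snord gene thus rested on 12 reads in replicate 1 and 4 in replicate 2, and the median Snora gene on 15 and 5. The median of the 15 hosts with a known length was 544 and 165. These are rounded values of Snhg12, which did not give whole reads.

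The same RNAs therefore took different shares of the library per length and per read. Snord genes held 0.457% and 0.386% of all TPM (0.422% ± 0.0506, SD, n = 2) but 0.0199% ± 0.00191 of recovered reads. Snora genes held 0.104% ± 0.00461 of TPM and 0.00892% ± 0.000256 of reads. The order turned for hosts, which held 0.0747% ± 0.00345 of TPM and 0.109% ± 0.00574 of reads. In reads, the hosts summed to 17919 and 5704, the Snord genes to 3386 and 1014, and the Snora genes to 1448 and 477.

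**Figure D2:**
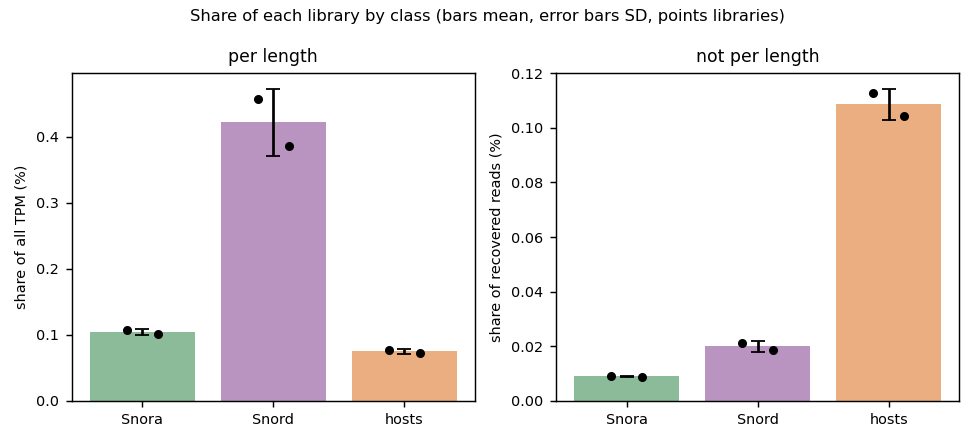
Share of each library held by Snora, Snord and host genes, in percent of all TPM on the left and in percent of recovered reads on the right; bars are means, error bars SD and points the 2 libraries. Snord genes stand highest per length at 0.422% of TPM and hosts stand highest per read at 0.109% of reads.

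Compared with other short rows, the named snoRNAs stood higher. The 1458 rows under 300 exonic bases that were no members had medians of 0.82 and 0 in replicates 1 and 2 on the log2(TPM + 1) scale, and the 190 other rows annotated as snoRNA, mostly Gm numbers, had medians of 0.89 and 0. These are descriptions over different sets of genes and no test was made.

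Among box C/D snoRNAs, a few Gas5 and Snhg1 members held most of the class. Snord78 was measured at 1519 TPM in replicate 1 (953 reads, 95% Poisson interval 1424 to 1619 TPM) and at 1206 TPM in replicate 2 (266 reads, 1065 to 1359 TPM), and took 32.3% ± 1.39 of all Snord TPM. Snord47 stood at 592 and 524 TPM on 433 and 135 reads, with intervals of 537 to 650 and 440 to 621 TPM. These intervals overlapped for Snord47 and did not for Snord78, which was lower in replicate 2. They cover counting error only, because the libraries carry no stated molecular identifiers and several reads may copy 1 molecule.

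Snord22 (U22), the Snhg1 snoRNA known to act in the processing of 18S ribosomal RNA, had 289 and 301 TPM on 346 and 127 reads. Snord80, the third Gas5 member, had 279 and 210 TPM on 215 and 57 reads. Both are carried by non-coding hosts, and with Snord78 and Snord47 they formed the upper end of the class. The 3 Gas5 members alone held 52.3% of Snord TPM in replicate 1 and 50.3% in replicate 2, and Snord78, Snord47 and Snord22 together held 52.6% ± 0.132.

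The next box C/D members lay in ribosomal protein or other hosts. Snord100, inside Rps12, had 182 and 210 TPM (128 and 52 reads), and Snord72, inside Rpl37, had 126 and 155 TPM (97 and 42 reads). Snord99, inside Snhg12, differed between the libraries, with 176 TPM on 124 reads in replicate 1 and 68.7 TPM on 17 reads in replicate 2. Snord65, inside the non-coding gene 2410006H16Rik, had 148 and 95.6 TPM on 101 and 23 reads. The intervals of Snord100, Snord72 and Snord65 overlapped between libraries and those of Snord99 did not, at 147 to 210 TPM against 40.03 to 110.02 TPM. The 8 highest Snord genes held 72.2% ± 0.391 of the class, and the other 64 lay at a mean of 0 to 87.4 TPM.

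Members known for cutting the ribosomal RNA precursor did not stand together. Snord118 (U8), needed for the large subunit RNAs and transcribed outside any same-strand gene, had 32.7 and 11.1 TPM on 42 and 5 reads. The U14 family (Snord14 genes), needed for 18S ribosomal RNA, ran from 0 for Snord14d to 24.5 and 26.6 TPM for Snord14e. Snord13 (U13), also in no same-strand gene, had 4.05 and 2.88 TPM on 4 reads and 1 read. The intervals of Snord13 were 1.10 to 10.4 and 0.0728 to 16.0 TPM, too wide to place it.

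Among box H/ACA snoRNAs the highest TPM was below that of the leading box C/D members, and the 3 highest genes held 38.5% ± 0.169 of the class, compared with 52.6% among Snord genes. Snora57 was highest at 188 TPM in replicate 1 (265 reads, 166 to 212 TPM) and 170 TPM in replicate 2 (84 reads, 135 to 210 TPM), and held 17.2% ± 0.504 of Snora TPM. It lies in no gene of its own strand and inside Lbhd1 on the other, where it overlaps no annotated exon. Without a stated strand setting, reads of unspliced Lbhd1 RNA could not be separated from those of Snora57. Snora65, inside Rpl12, had 142 and 124 TPM on 175 and 54 reads. Intervals of both genes overlapped between the libraries.

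Snora41, inside the elongation factor gene Eef1b2, had 84.5 and 92.9 TPM (106 and 41 reads). Snora73b (U17), which acts in early cuts of the ribosomal RNA precursor and lies inside Snhg3, had 82.1 and 89.0 TPM on 160 and 61 reads. Snora33, inside Rps12, had 61.2 and 71.9 TPM on 75 and 31 reads. None of these differed beyond its counting intervals.

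Other leading Snora genes also had overlapping intervals. Snora24, inside Snhg8, had 54.2 and 55.2 TPM on 67 and 24 reads. Snora26, inside the non-coding gene Dancr, had 43.5 and 42.0 TPM. Snora70, inside Rpl10, was among the 8 with the most reads, with 49.9 and 34.9 TPM on 65 and 16 reads. The 8 highest Snora genes held 68.5% ± 2.37 of the class.

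Gas5 led the hosts. This non-coding gene, whose spliced transcript is known to be removed by nonsense-mediated decay when translated, lies at chr1:161034422-161038539 and was measured at 230 TPM in replicate 1 (8205 reads) and 199.9 TPM in replicate 2 (2513 reads), or 28.7% ± 1.48 of host TPM. Snhg3 (chr4:132348014-132353686) had 122 and 128 TPM, Snhg1 (chr19:8723475-8726443) had 88.5 and 92.3 TPM, and Snhg6 (chr1:9941959-9944118) had 78.6 and 80.1 TPM. Neighbours Snhg6 and Snhg15, the latter at 81.4 and 69.1 TPM, changed order between the libraries, and Snhg5 lay below both at 64.6 and 54.8 TPM. The gap from Gas5 to Snhg3 was larger than the spread of either between libraries.

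A middle group ran from Snhg8 to Snhg20. Snhg8 had 23.6 and 22.1 TPM, Snhg12 had 23.8 and 20.6 TPM, and these could not be ordered. Snhg4 had 19.0 and 16.5 TPM, and no read count is given for it because its symbol had no match in the annotation. Snhg20 had 11.27 and 11.46 TPM.

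The lowest hosts were all above 1 TPM. Snhg17 had 7.32 and 5.90 TPM, Snhg9 had 5.17 and 6.54 TPM on only 9 and 4 reads, and Snhg10 had 5.37 and 5.09 TPM on 27 and 9 reads. Snhg14, the long paternally expressed host of the Snrpn domain, had 5.55 and 4.29 TPM over 26093 exonic bases, and 6.91% of these bases are shared with Ube3a on the other strand. GENCODE places 208 snoRNAs inside Snhg14, none of which had a row. Snord107 and Snord64 of the same imprinted domain had 21.04 and 0 TPM and 1.57 and 8.93 TPM. Snhg18 had 3.04 and 4.03 TPM and Snhg11 had 1.44 and 1.19 TPM.

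Some host values rest on exons shared with other genes. For Snhg3, 29.8% of exonic bases are shared on the same strand with Rcc1 or Snora73a and 71.5% with Gm17300 on the other. For Snhg6 11.1% are shared with Mcmdc2 on the other strand, and for Snhg9 7.65% with Rps2, a highly expressed ribosomal protein gene. On the same strand, hosts also share exonic bases with the snoRNA rows inside them, 20.9% for Snhg1, 19.6% for Snhg12, 17.8% for Gas5 and 15.2% for Snhg8. How reads in shared bases were counted is not stated, so these levels, and the ratios of snoRNAs to these hosts given below, are uncertain. The length of a host counts every annotated exon, retained introns included. Of the annotated transcripts, 20 of 25 for Gas5 and 14 of 18 for Snhg1 are retained introns. Host TPM is thus a level over all these bases and not of spliced RNA alone, and the ratios depend on it.

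Inside Gas5, 9 snoRNA rows could be placed in order, 3 of them members. From the start of the gene, Gm26224 had 24.98 and 26.17 TPM and Gm22489 had 40.7 and 28.9 TPM, both far below Gas5 itself. Gm22357 followed at 179 and 159 TPM and Gm23212 at 538 and 459 TPM. Snord78 came next and was the peak of the row at 6.32 ± 0.415 times the TPM of Gas5.

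Beyond it the values stayed above the host. Mir5117, annotated as a snoRNA in spite of its name, had 693 and 716 TPM, and Snord80 stood closest to Gas5 at 1.13 ± 0.116 times its TPM. Snord47 was at 2.60 ± 0.0327 times and Gm25789, the last of the row, had 583 and 437 TPM. In all, 6 of 9 rows lay above Gas5 in both libraries, and the first 3 lay below it in both. Levels of snoRNAs from 1 host thus ranged from 25.6 to 1362 TPM in the mean.

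Inside Snhg1, 8 rows were placed and 1 was a member. Snord22, the last of the row, had the highest level at 3.26 ± 0.00318 times the TPM of Snhg1. The first 2, Gm25855 with 33.6 and 16.6 TPM and Gm25894 with 19.6 and 7.98 TPM, lay below the host. Gm24452 (130 and 154 TPM), Gm22744 (168 and 120 TPM), Gm22680 (111 and 113 TPM) and Gm23246 (122 and 174 TPM) lay above it in both libraries. Gm24453 was above Snhg1 in replicate 1 at 125 TPM and below it in replicate 2 at 63.0 TPM.

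**Figure D3:**
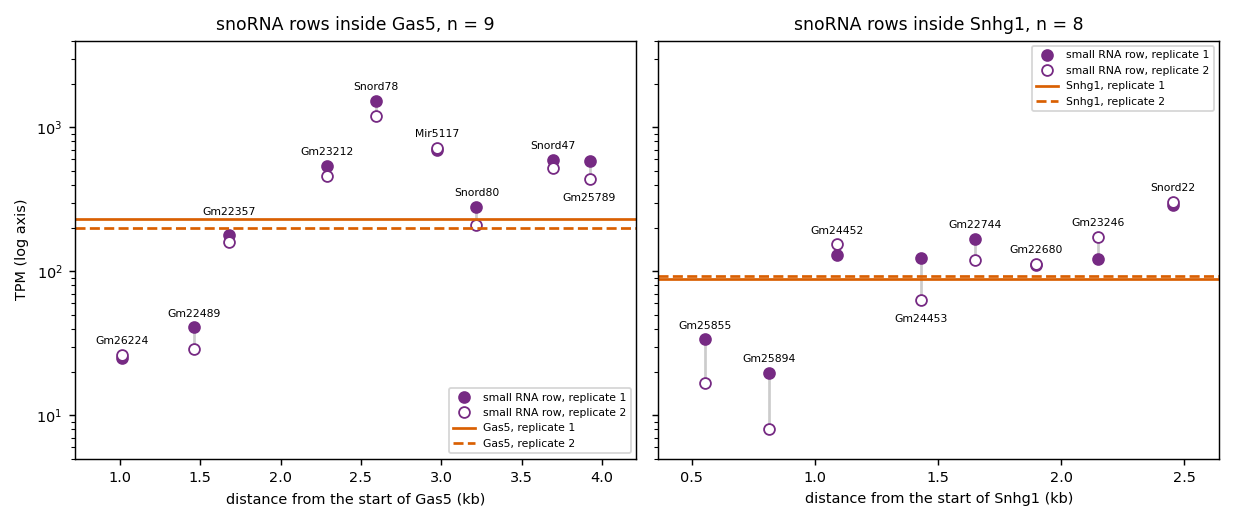
TPM (log axis) of the snoRNA rows inside Gas5 (9 rows) and Snhg1 (8 rows) against their distance in kb from the start of the host, with filled points for replicate 1, open points for replicate 2 and lines for the level of the host in each library. The first rows in each gene lie below the host lines, Snord78 peaks at 1519 and 1206 TPM, and 6 of the Gas5 rows and 5 of the Snhg1 rows are above the host in both libraries.

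Other Snhg hosts carried few measured snoRNAs. Inside Snhg12, Snora44 had 3.26 and 2.32 TPM, Snora61 had 26.7 and 20.7 TPM and Snord99 had 5.37 ± 2.88 times the TPM of its host. Inside Snhg5, Snord50b had 68.7 and 37.4 TPM and Snord50a had 61.4 and 41.5 TPM, close to the host in replicate 1. Snhg17 contained Gm26003 at 13.0 and 2.65 TPM and Gm24411 at 7.23 and 0 TPM. These hosts differed, since the small RNA stood above its host in some and below in others.

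Hosts of a single member varied as much. Snora24 had 2.40 ± 0.140 times the TPM of Snhg8 and Snora78 (13.1 and 14.0 TPM) had 2.34 ± 0.281 times that of Snhg9. Below their hosts were Snora9 in Snhg15 (11.1 and 18.0 TPM) and Snord87 in Snhg6 (14.5 and 24.1 TPM). Snord123 in Snhg18 was at 0 in both. Snora74a (20.4 and 19.8 TPM) was placed in Snhg4 by the RefSeq gene table and lay above it in both libraries.

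Over all members, the gene around the snoRNA went with its level, but most members in Snhg or Gas5 hosts overlap a same-strand exon. The kind of host and this overlap cannot be told apart here. A same-strand gene was found for 103 of 109 located Snora and Snord genes, in 73 hosts. The 17 members in Snhg or Gas5 hosts had a median of 5.79 and 5.26 on the log2(TPM + 1) scale, and their TPM was in the median 104% ± 4.81 of that of the host, with 9 above it in both libraries. Not all of the 9 were resolved from the host. In replicate 2 the counting intervals of Snord80 (159 to 273 TPM), Snora61 (9.47 to 39.3 TPM), Snora74a (10.6 to 33.9 TPM) and Snora78 (5.15 to 30.5 TPM) held its level. The 14 in other genes not annotated as protein-coding had medians of 3.89 and 3.68 and stood at 50.9% ± 18.2 of the host. This group rests on the annotated type alone and takes in Snora15, at 0 TPM inside Cct6a (224 and 200 TPM).

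Members in ribosomal protein genes, 33 in 24 hosts, had medians of 4.33 and 4.52 but stood at 1.91% ± 0.0351 of hosts whose own median was 807 TPM. No such member exceeded its host, and 22 were under 5% of it in both libraries. The largest was Snord100 at 61.1% of Rps12, followed by Snora65 at 45.2% of Rpl12. The 39 members in other protein-coding genes were lowest, with medians of 2.43 in replicate 1 and 0 in replicate 2, and 10 of them were at 0 in both libraries. Of these, Snord8 alone exceeded its host in the mean, at 1120% of Chd8, from a value present in replicate 1 only.

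Across members, Spearman's rho between the level of the snoRNA and that of its host was 0.33 in replicate 1 and 0.34 in replicate 2 over 103 members. It was 0.65 and 0.69 over the 17 members in Snhg or Gas5 hosts, and 0.15 and 0.24 over the 33 in ribosomal protein genes. Points share libraries, several share a host, and 3 of the 17 share Gas5, so these are descriptions without a p-value.

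**Figure D4:**
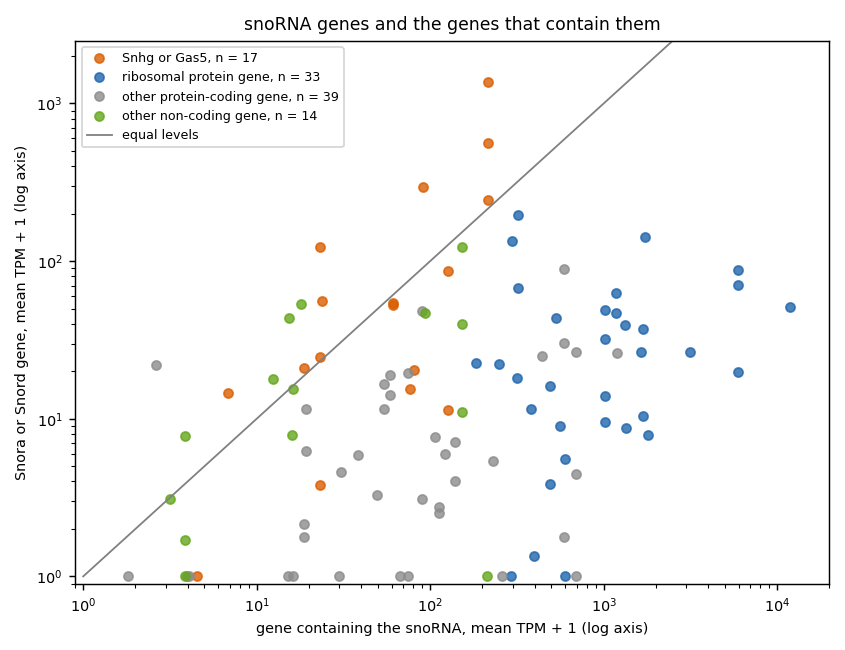
Mean TPM + 1 of each Snora or Snord gene against mean TPM + 1 of the gene that contains it on the same strand, both on log axes, coloured by the kind of host, with a line of equal levels. Members of Snhg or Gas5 hosts (17) scatter around the line at a median of 104% of the host, and all 33 members of ribosomal protein genes lie below it.

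A read in a snoRNA gene need not come from the mature snoRNA. Of the 103 members with a host, 58 overlap an annotated exon on the same strand, 39 of them only in transcripts annotated as retained introns. The medians were 4.19 and 3.68 on the log2(TPM + 1) scale for these 58 and 3.65 and 3.56 for the other 45. The classes differed in this. Snora medians were 4.61 and 3.93 with overlap (20 genes) and 3.16 and 0.84 without (14 genes). Snord medians were 4.12 and 3.68 with overlap (38 genes) and 3.96 and 4.08 without (31 genes), the other way round in replicate 2. Snord78 overlaps exons of 6 Gas5 transcripts, Mir5117 of 5 and Gm22357 of 4, and Snord80, with an intermediate level, of 1. Of the other Gas5 rows, Gm23212 and Gm25789 overlap 3 (means of 498 and 510 TPM). Snord47 and Gm22489 overlap 2 (558 and 34.8 TPM), and Gm26224 overlaps 1 (25.6 TPM). Of all located Snora and Snord genes, 10 lie inside a gene on the other strand, 9 of which also have a same-strand host, and 5 overlap an exon there. Mature snoRNA, excised intron and unspliced host RNA cannot be told apart in these counts.

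Agreement between the libraries separated the classes. No host differed more than 2-fold on the log2(TPM + 1) scale, where 10.2% of all genes did, and host differences (replicate 2 minus replicate 1) ran from -0.31 for Snhg14 to 0.31 for Snhg18. Among Snora genes 12 of 38 differed more than 2-fold, 2 higher and 10 lower in replicate 2, and among Snord genes 28 of 72 did, 11 higher and 17 lower. Counted without a fold limit, 10 of 16 hosts, 35 Snord and 19 Snora genes were lower in replicate 2, and so were 55.7% of all genes above 0 in at least 1 library. Over all genes, 4.31% were more than 2-fold higher in replicate 2 and 5.89% more than 2-fold higher in replicate 1.

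The number of reads went with these counts. Among members with at least 100 reads over both libraries, 0 of 6 Snora genes, 1 of 8 Snord genes (Snord99) and 0 of 12 hosts differed more than 2-fold, against 2.59% of all genes with that many reads. Of members with 1 to 99 reads, 12 of 24 Snora and 27 of 55 Snord genes did, where 20.7% of all genes with 1 to 99 reads did and 56.1% of those that also had under 300 exonic bases. The share in the small RNA members is therefore near that of short genes with few reads. Pearson's r of log2(TPM + 1) across genes was 0.996 for hosts, 0.903 for Snora and 0.797 for Snord genes, compared with 0.960 over all genes, and genes are not independent replicates.

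**Figure D5:**
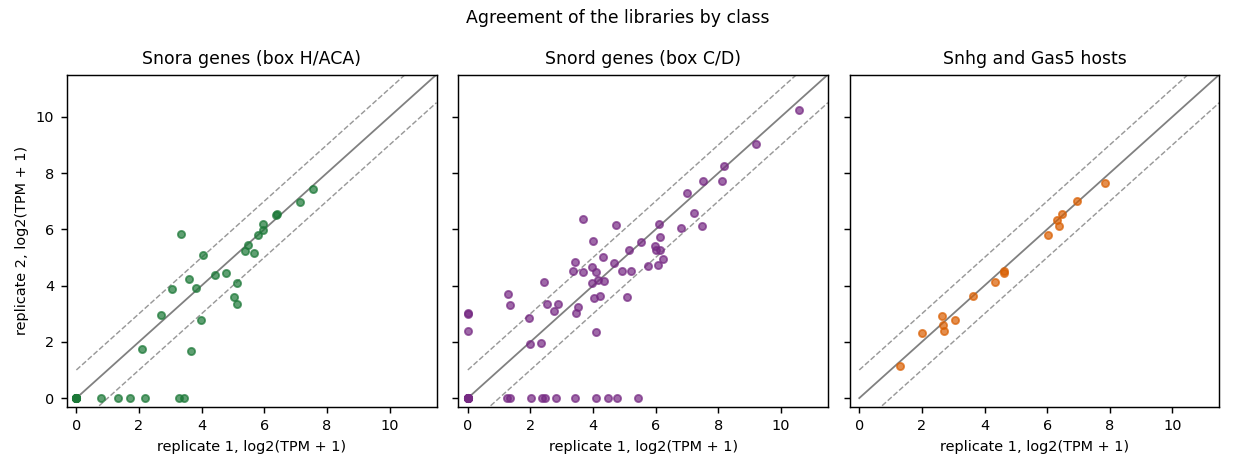
Log2(TPM + 1) in replicate 2 against replicate 1 for Snora, Snord and host genes, with a solid line of equal values and dashed lines at a 2-fold difference. All 16 hosts lie between the dashed lines, while 12 Snora and 28 Snord genes lie outside them, among them most of the points along the bottom that are at 0 in replicate 2 alone.

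The members that differed most rested on few reads. Lower in replicate 2 were Snord8 with 42.1 and 0 TPM (44 and 0 reads), Snord45c with 26.3 and 0 TPM (20 and 0 reads) and Snord107 with 21.04 and 0 TPM (14 and 0 reads). Snora3, inside Rpl27a, had 34.3 and 9.06 TPM on 43 and 4 reads, and Snord49a had 16.1 and 4.15 TPM on 11 reads and 1 read. For Snord8 the interval of replicate 1 was 30.6 to 56.5 TPM and a count of 0 in replicate 2 allows up to 8.16 TPM (3 reads). For Snord45c it was 16.1 to 40.6 TPM against up to 11.2 TPM, and for Snora3 it was 24.8 to 46.2 TPM against an interval of 2.47 to 23.2 TPM. The intervals or limits of these 3 did not overlap, and those of Snord107 and Snord49a did. All were picked for their difference, so some separation comes with the choice, and the intervals leave out reads that copy 1 molecule.

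Higher in replicate 2 were Snord69, inside Gnl3, with 11.8 and 82.3 TPM on 9 and 22 reads, and Snora43 with 9.11 and 56.5 TPM on 11 and 24 reads. Their intervals did not overlap, at 5.41 to 22.5 against 51.5 to 124.5 TPM for Snord69 and 4.55 to 16.3 against 36.2 to 84.1 TPM for Snora43. Snord34, inside Rpl13a, had 15.0 and 47.0 TPM on 10 and 11 reads, Snord57, inside Nop56, had 4.38 and 16.6 TPM on 3 and 4 reads, and Snord42a, inside Rpl23a, had 9.71 and 27.6 TPM on 6 reads in each. These last 3 had overlapping intervals and did not differ detectably at this depth. These genes too were picked for their difference. Each replicate is 1 library, so such a difference describes these libraries.

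Zeros were more frequent among the small RNAs than among all genes and less frequent than among other short rows. A value of 0 in both libraries was listed for 8 Snora and 9 Snord genes, 17 of 110, where 7.81% of all genes were at 0 in both. Of the other rows under 300 exonic bases 574 of 1458 were at 0 in both, and of the other snoRNA rows 70 of 190. For the 16 of the 17 members with a known length, a count of 0 allows up to 1.72 to 4.93 TPM in replicate 1 and 4.88 to 14.02 TPM in replicate 2 (3 reads each), so the deeper library sets the tighter limit. They include Snora52 inside Rplp2, Snord37 inside Eef2 and Snord15a inside Rps3, small RNAs of genes for abundant translation proteins. A further 20 were at 0 in 1 library only, 17 of them in replicate 2, where 11.1% of all genes were at 0 in exactly 1 library. Of the 1458 other short rows, 118 were at 0 in replicate 1 alone and 256 in replicate 2 alone. Of the members at 0 in replicate 2 alone, Snord8 had the most reads in replicate 1, at 44.

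Near-identical copies make several values uncertain, since the treatment of reads that fit several places is not stated. Snora73a and Snora73b, printed above, share 198 of 205 bases (96.6%) and had 14.9 and 5.84 TPM against 82.1 and 89.0 TPM. Snord50a and Snord50b share 71 of 72 bases (98.6%). Snord1b and Snord1c share 74 of 75, with 1.40 and 0 TPM for the first and 0 in both for the second, and Snord14c and Snord14d share 84 of 86, with 0 and 6.96 TPM against 0 in both. The division of reads between the members of each pair was not tested.

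The proteins that form the particles were all measured. Of the box C/D core, Snu13, which binds the box motif first, had 194 and 161 TPM (177 ± 23.5), Nop56 had 55.0 and 50.9 TPM, the methyltransferase fibrillarin (Fbl) had 45.7 and 42.9 TPM and Nop58 had 28.1 and 31.2 TPM. Of the box H/ACA core, Nop10 had 805 and 878 TPM, Nhp2 had 793 and 797 TPM, the pseudouridine synthase dyskerin (Dkc1) had 85.5 and 63.7 TPM and Gar1 had 11.7 and 16.4 TPM. On the log2(TPM + 1) scale the medians of these lists were 5.63 ± 0.0701 and 7.93 ± 0.146 (SD, n = 2), and no member differed more than 2-fold between libraries.

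Assembly and partner factors of the particles were also present, 17 of 17 at 1 TPM or more in each library, with a median of 3.91 ± 0.159 on the log2 scale. The highest were the nucleolar chaperone Npm1 (2138 ± 90.5 TPM), Znhit3 (292 TPM) and the ATPase Ruvbl1 (225 TPM), both of the box C/D assembly machinery, and nucleolin, Ncl (138 TPM), itself the host of Snora75 and Snord82. The lowest were the H/ACA chaperone Shq1 (5.11 TPM), the Cajal body scaffold Coil (5.45 TPM), Smn1 (6.11 TPM) and Nvl (6.92 TPM). Factors of nonsense-mediated decay, a pathway known to limit spliced Gas5, were at 1 TPM or more in each library in 10 of 10 cases with a median of 2.41 ± 0.109. They ran from Smg9 (1.29 TPM) and Upf1 (1.53 TPM) to Upf2 (31.0 TPM) and Upf3b (94.5 TPM), and none differed more than 2-fold.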

How the data were processed

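RNA-seq of 2 E9.5 PGC samples was analysed. The methods describe Smart-seq2 cDNA and the labels another library kit, so the chemistry is uncertain. Smart-seq2 primes on poly(A), which mature snoRNAs lack, and whether they could be captured was not tested. The authors aligned reads to mm10 with Hisat2, counted with featureCounts and deposited expression per gene as TPM. The submitters' processing notes also list Bowtie2, RSEM, DESeq2 and R 3.4.2. The annotation, strand setting and treatment of shared reads are not given in the sources used here. TPM divides by length, so few reads give high values for short genes.

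TPM multiplied by exon length in GENCODE M21 gave whole reads (within 0.02) for 96.7% and 95.8% of values under 50 reads, for 109 of 110 small RNA rows and for 13 of 16 hosts (not for Snhg12 and Snhg20). Rows at 0 in both libraries give whole reads with any length. For Snora43 and Snord80, each with 2 gene identifiers, the one giving whole reads was used, so these rows could not fail. Simulated reads of 18748 genes were recovered at 100% in each library. The simulation used the same lengths both ways, so it cannot show whether the submitters used these lengths. Intervals are exact 95% Poisson intervals and zero limits 3 reads.

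Levels are log2(TPM + 1), which understates differences of low genes. Only 1 group of 2 libraries was analysed here, so no test was made and values are mean ± SD (n = 2). The submitters call the replicates biological and state no more of their origin. The host of a snoRNA was the gene around it on the same strand, preferring Snhg or Gas5, then ribosomal protein, other protein-coding and other non-coding genes by annotated type. Members, lists and alternatives were chosen with earlier results of these data known. Named by rule were all hosts, the 8 highest and 8 most-read genes of each small RNA class, the 5 that differed most each way at a mean of at least 10 TPM, rows inside Gas5 and the 4 Snhg genes with most, core particle proteins, and the extremes of other lists. Other members were named after their values were seen. The result of 1 gene under this rule is not reported here. Alternatives were another pseudocount, filters, rescaling, recovered reads and leaving out each replicate. Analyses used Python 3.11.15, numpy 2.4.6, pandas 2.3.3, scipy 1.17.1, Biopython 1.88 and matplotlib 3.10.9.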

Additional observations from a re-analysis of the deposited data

How the results depend on the processing

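Of 49 alternative values for 11 results, 37 stayed within the limits set by the replicate spread or 1.5 times the count. Part of that number was fixed in advance. For the medians, the share and the gap, leaving out a replicate could not pass a limit computed from the same 2 libraries. Keeping members of a mean TPM of at least 1 could not change the hosts, which all lay above it. The Snora median of 3.54 on the log2 scale became 3.43 with a pseudocount of 0.1, 4.46 with members of a mean TPM of at least 1 and 3.75 with TPM rescaled over genes of at least 200 bases. The last setting moved the host median from 4.38 to 4.59, and the filter moved the Snord median from 3.83 to 4.32. The Snord minus Snora median of 0.29 turned to -0.15 on the log2(RPM + 1) scale and -0.14 under the filter (-0.44 in replicate 1, 0.15 in replicate 2), and was 1.77 ± 1.38 (0.79 in replicate 1, 2.74 in replicate 2) over the 16 Snora and 32 Snord genes that overlap no exon of another gene. The cause was not tested, except that RPM is not divided by length. The share of TPM of 0.526% was 0.0288% of reads by construction and 0.389% without Snord78. Counts differing more than 2-fold were 0 Snora and 1 Snord gene at 100 or more reads, an alternative chosen after seeing the data. Leaving out a replicate gave a gap of 0.21 to 0.36 and a share of 0.487% to 0.565%. No paired analysis was possible because there is 1 group only. Depth limits most small RNA rows: 78 of the 109 located had under 10 reads in replicate 2.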

Other observations

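Other small RNA rows lay outside the naming rule and were not counted in the classes above. Rn7sk, the 7SK RNA that holds the elongation factor P-TEFb, had 3162 and 3901 TPM on 9949 and 4317 reads, above every Snora and Snord gene. Rpph1, the RNA of ribonuclease P, had 38.9 and 73.1 TPM on 118 and 78 reads. Terc, the telomerase RNA, was at 0 in both libraries. Among snoRNA rows with Gm numbers outside Gas5 and Snhg1, Gm24616 had 266 and 308 TPM on 352 and 143 reads, Gm23455 had 219 and 170 TPM, and Gm22579 had 127 and 117 TPM.

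The 13 rows annotated as small Cajal body RNAs, which guide modification of spliceosomal RNAs, had a median of 0 in both libraries. Only Gm25395, at 13.9 and 14.3 TPM on 36 and 13 reads, had 1 TPM or more in each. These rows were named after their values were seen.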
